A study of Mus musculus with 18 samples.

Results

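The T cell receptor beta chain variable segments (Trbv genes) were examined in RNA sequencing of sorted mouse CD8 T cells. They were taken from the deposited table as all rows whose gene symbol begins with Trbv and a digit and whose normalized expected counts sum to more than 0 over the 18 libraries. Of 46983 rows in the table, 35 had such a symbol and 24 of these were above 0. The other 11 were all annotated as pseudogenes and were listed at 0 in every library. The 24 members comprise 22 segments annotated as functional and the pseudogenes Trbv7 and Trbv24.

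The libraries came from naive and memory-phenotype CD8 T cells, which the library descriptions mark as CD44 low and CD44 high. There were 4 naive and 4 memory libraries of wild-type mice. Mice of the genotype Dock2-Hsd/Hsd (Dock2-/-), called Dock2-deficient here, contributed 5 of each. Dock2 encodes an activator of the small GTPase Rac in blood cells. Neither ages nor sexes were labelled, and growth and treatment protocols were given as none. The strain field reads C57BL/6J throughout, but the descriptions of the Dock2-deficient libraries carry the name C57L6NHsd, so substrain and genotype cannot be told apart. Whether each replicate was an animal of its own is not labelled. Nor is it labelled whether naive and memory libraries with the same number came from the same animal. The p-values cover only how these libraries vary, which may in part be technical.

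Each alpha beta T cell carries a beta chain whose variable domain is built in the thymus, where the RAG recombinase joins a variable (Trbv), a diversity (Trbd) and a joining (Trbj) segment, and splicing adds a constant segment, Trbc1 or Trbc2. Most cells express a single beta chain, so the mix of Trbv transcripts in a population reflects both how many cells carry each segment and how much receptor RNA they hold. In bulk RNA these contributions cannot be told apart. Older names numbered the segments as V beta families. RefSeq lists Trbv12-1 and Trbv12-2 as Tcrb-V5.2 and Tcrb-V5.1, and Trbv13-1, Trbv13-2 and Trbv13-3 as Tcrb-V8.3, Tcrb-V8.2 and Tcrb-V8. T cells with V beta 5 receptors are known for their deletion by endogenous mammary tumour virus superantigens in strains that carry the class II molecule I-E, which C57BL/6 mice lack.

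The results below turn on Trbv12-1 (ENSMUSG00000095574, chromosome 6, 41113550 to 41114067, plus strand, mm10, GENCODE M21) and Trbv12-2 (ENSMUSG00000094525, chromosome 6, 41118851 to 41119364, plus strand). Trbv13-1 lies between them. Their second exons, which encode the variable domain, are shown because the reads of both copies can be assigned only where they differ. Both exons have 293 bases, and the 32 differing bases (89.1% identity) are in capitals, at chr6:41113775-41114067 and chr6:41119072-41119364.
Trbv12-1: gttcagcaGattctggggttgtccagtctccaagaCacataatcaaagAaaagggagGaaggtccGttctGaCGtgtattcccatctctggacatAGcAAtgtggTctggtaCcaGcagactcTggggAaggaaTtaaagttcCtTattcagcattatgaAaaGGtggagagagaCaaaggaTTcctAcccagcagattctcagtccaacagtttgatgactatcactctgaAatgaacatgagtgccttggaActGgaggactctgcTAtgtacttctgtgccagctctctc
Trbv12-2: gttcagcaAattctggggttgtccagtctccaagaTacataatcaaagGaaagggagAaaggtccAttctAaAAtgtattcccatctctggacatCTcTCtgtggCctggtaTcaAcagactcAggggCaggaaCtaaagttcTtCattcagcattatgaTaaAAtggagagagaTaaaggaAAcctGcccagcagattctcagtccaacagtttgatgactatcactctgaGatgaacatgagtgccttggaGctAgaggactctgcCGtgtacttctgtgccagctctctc
Over the whole annotated transcripts the longest identical run of the pair was 44 bases, so no 50-base stretch was shared. Among all pairs of members, Trbv13-2 and Trbv13-3 were the most alike, with 90.6% identity and a longest identical run of 50 bases. Because the authors' counting can divide reads between like transcripts by estimate, the Trbv12 and Trbv13 families are also given as sums of their rows.

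The depth on these genes was low. The libraries held 2215987 to 8257768 expected reads in all, and 176.93 to 550.76 of them lay on Trbv segments. A segment with no read could therefore still hold up to 0.545% to 1.70% of the Trbv reads of a library, taking 3 reads as the limit and counting error alone. The Trbv values of a library summed to 245 to 473.5 normalized expected counts, with group means of 372 ± 94.5 and 355 ± 44.7 (SD, n = 4 each) in naive and memory cells of wild type, 349.6 ± 60.1 (SD, n = 5) in Dock2-deficient naive and 369.9 ± 50.04 (SD, n = 5) in Dock2-deficient memory libraries. The groups' sums overlapped. Each segment was then expressed as a percentage of the Trbv sum of its library, called its share.

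The sort was checked with marker genes. Cd8a, Cd8b1, Cd3e and Trac summed to between 4811 and 10169 in every library, and the CD4 T cell list (Cd4, Zbtb7b, Foxp3, Cd40lg) to at most 28.0. The gamma delta T cell list (6 genes, Trdc, Tcrg-C1, Tcrg-C2 and Tcrg-C4 among them) summed to 5.18 to 11.3 in wild-type naive and 49.8 to 81.3 in wild-type memory libraries, and to 39.9 to 87.4 and 19.5 to 31.0 in the Dock2-deficient naive and memory libraries. The NK cell list summed to 5.59 to 15.4, 75.2 to 105, 4.55 to 63.9 and 65.5 to 86.8 in the same order. Most of that sum was Eomes, which memory CD8 T cells also express, and the means of Ncr1, Tyrobp and Klrb1f were at most 4.80 in any group. The list for natural killer T and MAIT cells (6 genes) summed to 0 to 2.26, 0.874 to 5.80, 0.802 to 3.65 and 1.72 to 9.36 in that order. Its members Trav11, Traj18 and Traj33 were listed at 0 in every library, and Zbtb16, Trav11d and Trav1 were above 0 in some. Dock2 RNA averaged 388 and 537 in wild-type naive and memory and 243 and 184 in Dock2-deficient naive and memory libraries. Xist was at 1820 or more in all wild-type libraries and in replicate 1 of both Dock2-deficient groups and near 0 in the other 8, so sex was spread unevenly over the genotypes and cannot be told apart from genotype outside those replicates.

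Usage in naive cells was spread broadly. Of the 24 members, 19 held at least 1% of the Trbv sum on average over the 18 libraries. Per length, that is, after each value was divided by the exonic length of its segment, Trbv13-2 held the highest mean share in wild-type naive cells (8.30% ± 2.38, SD, n = 4). It was followed by Trbv17 (7.91% ± 2.76), Trbv16 (7.89% ± 0.580) and Trbv12-2 (7.66% ± 1.20). The gaps between these neighbours were smaller than the SDs, so their order is not resolved. In Dock2-deficient naive cells Trbv16 (9.76% ± 1.35, SD, n = 5) and Trbv12-2 (9.57% ± 1.60) came first, again with a gap below the SDs.

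In memory cells the Trbv12 segments had the highest mean shares per length in both genotypes. Trbv12-2 held 14.7% ± 2.29 (SD, n = 4) in wild-type memory cells, ahead of Trbv12-1 with 9.40% ± 0.944 by 5.34 percentage points, more than 3 times their pooled SD (3.05). Trbv16 followed Trbv12-1 with 8.33% ± 2.27, a gap of 1.07 percentage points or 0.618 of the pooled SD, so the order of these neighbours is not resolved. In Dock2-deficient memory cells Trbv12-2 held 14.7% ± 3.07 and Trbv12-1 12.2% ± 3.46 (SD, n = 5), a gap within the SDs, and Trbv16 followed with 7.44% ± 0.430. A Trbv12 segment was the most used per length in 9 of 9 memory libraries and in 4 of 9 naive libraries.

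**Figure D1:**
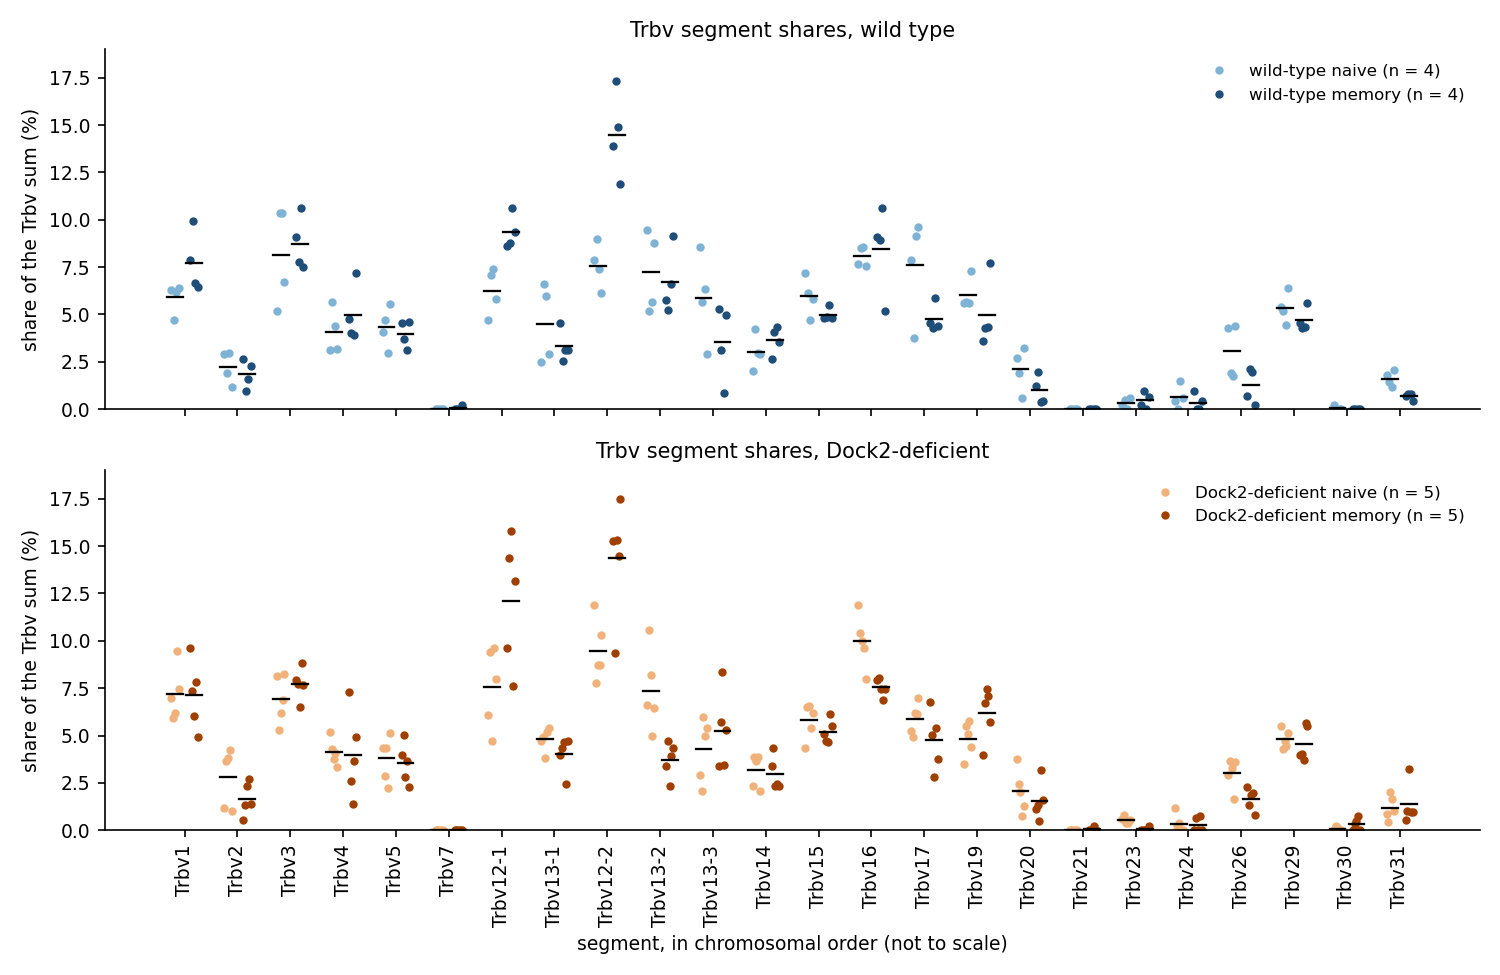
Share of each of the 24 Trbv segments in the Trbv sum of its library (percent, vertical axis), in chromosomal order. Points are libraries and short black lines are group means (wild type above, 4 libraries per group; Dock2-deficient below, 5 per group). Trbv12-1 and Trbv12-2 have the highest group means in both memory groups, while Trbv7, Trbv21, Trbv23, Trbv24 and Trbv30 lie near 0.

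The 6 segments with the highest mean share over the 18 libraries were Trbv12-2 (11.5%), Trbv12-1 (8.93%), Trbv16 (8.54%), Trbv3 (7.83%), Trbv1 (7.02%) and Trbv13-2 (6.18%). The first comparison asked how usage differs between memory-phenotype and naive cells. The Trbv12 pair is described first.

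Trbv12-2 took 7.87, 8.96, 7.38 and 6.12% of the Trbv sum in wild-type naive and 13.9, 17.3, 14.9 and 11.9% in wild-type memory cells. All 4 memory libraries lay above all 4 naive ones. In Dock2-deficient cells it took 11.9, 7.76, 8.72, 8.70 and 10.3% in naive and 15.3, 9.37, 15.3, 14.5 and 17.5% in memory libraries. There 4 memory libraries lay above all naive ones and replicate 2 did not. These shares rest on 18.99 to 48.01 expected reads per naive library and 27 to 89 per memory library. The expected reads of Trbv12-1 and Trbv12-2 lay within 0.05 of a whole number in all 18 libraries. The log2 fold change of the share was 0.91 ± 0.25 (SE) in wild type (limma, adjusted p = 0.0711) and 0.58 ± 0.22 in Dock2-deficient cells (adjusted p = 0.298), so neither passed the threshold of 0.05.

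Trbv12-1 took 4.72, 7.08, 7.38 and 5.83% in wild-type naive and 8.62, 8.76, 10.6 and 9.36% in wild-type memory libraries. Again the groups did not overlap. In Dock2-deficient cells it took 6.09, 9.39, 4.72, 9.63 and 7.99% in naive and 9.61, 14.4, 15.8, 7.60 and 13.2% in memory libraries. Here replicates 1 and 4 of the memory group fell within the naive range. The log2 fold changes of 0.57 ± 0.30 in wild type (limma, adjusted p = 0.569) and 0.66 ± 0.26 in Dock2-deficient cells (adjusted p = 0.327) did not pass.

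Summed, the Trbv12 family separated memory from naive cells in both genotypes. It took 12.6, 16.04, 14.8 and 11.96% of the Trbv sum in wild-type naive and 22.5, 26.1, 25.5 and 21.2% in wild-type memory libraries, or 13.8% ± 1.90 and 23.8% ± 2.34 (SD, n = 4 each). In Dock2-deficient cells it took 17.98, 17.1, 13.4, 18.3 and 18.3% in naive and 24.9, 23.8, 31.2, 22.1 and 30.7% in memory libraries, or 17.04% ± 2.07 and 26.5% ± 4.15 (SD, n = 5 each). In each genotype every memory library lay above every naive library. The differences were 9.99 and 9.47 percentage points, with log2 fold changes of 0.78 ± 0.20 (SE, limma, adjusted p = 0.0551) and 0.62 ± 0.18 (adjusted p = 0.10), which did not pass.

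An exact two-sided permutation test over the libraries, added after the data had been seen, gave p = 0.0286 in wild type and p = 0.00794 in Dock2-deficient cells, the smallest that these group sizes allow. Adjusted over the 8 such tests made on family shares, these exact permutation values were 0.114 and 0.0635. The test shuffled naive and memory libraries as independent, which may not hold if same-numbered libraries came from the same animal. In that case the smallest value that a paired permutation test allows would be larger, and no such paired test was run. A difference between the genotypes in this memory effect did not pass the test (interaction log2 value -0.15 ± 0.27, limma, adjusted p = 0.965), a fit in which the median of all genes was moved by -0.12 by scaling to the Trbv sum.

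**Figure D2:**
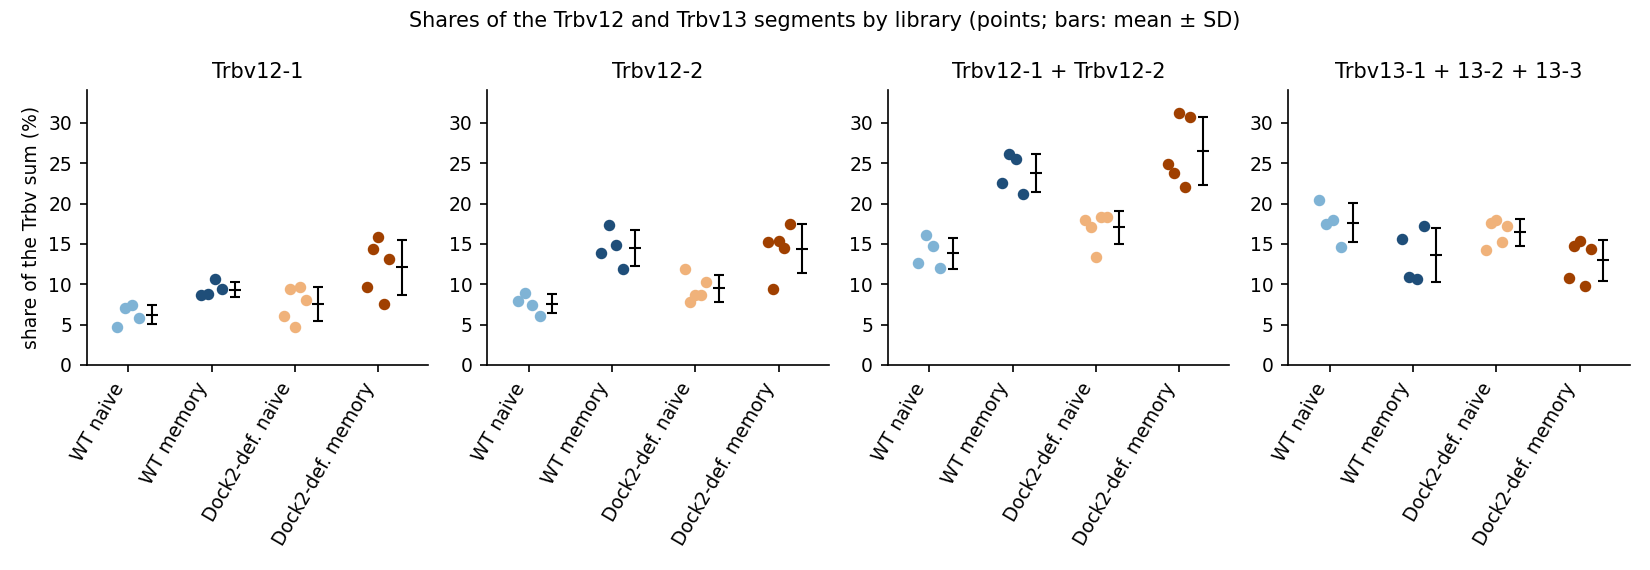
Shares of Trbv12-1, of Trbv12-2, of both summed and of the Trbv13 segments summed (percent of the Trbv sum, vertical axes) in each library (points) by group, with mean and SD (bars; n = 4 for wild type, n = 5 for Dock2-deficient). The summed Trbv12 share lies between 11.96 and 18.3% in the naive and between 21.2 and 31.2% in the memory libraries.

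A further contrast, also added after the data had been seen, averaged the memory effects of both genotypes, which share no libraries. In it Trbv12-2 rose by 0.74 ± 0.17 on the log2 scale (limma, adjusted p = 0.0102), and it was the only one of the 17 tested segments to pass. In the same contrast 4.16% of the 9437 genes tested passed. The Trbv12 family rose by 0.70 ± 0.14 (adjusted p = 0.00294). Trbv12-1 had a log2 fold change of 0.62 ± 0.20 (adjusted p = 0.103), and Trbv26 (Tcrb-V3) of -1.05 ± 0.36 (adjusted p = 0.145). Because this contrast was chosen with the shares in view, its p-values do not add independent evidence.

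Some other measures also differed between the groups. The gamma delta marker sums were higher in memory than in naive libraries of wild type and lower in memory than in naive libraries of Dock2-deficient mice, while the Trbv12 share was higher in memory libraries of both. The NK list sums, most of which were Eomes, were higher in memory libraries of both genotypes. The highest sums of the natural killer T and MAIT list were also in memory libraries. The part of these lists in the result was not tested. Replicates 3 and 5 of the Dock2-deficient memory group, with the highest Trbv12 shares there, had the lowest Trbv sums relative to Trbc1 and Trbc2 (10.05% and 8.34%, against 14.07 to 23.5% in the other 16 libraries). The other 3 memory libraries, at 22.1 to 24.9%, also lay above all 5 naive ones. Among the 8 Dock2-deficient libraries with Xist near 0, the family share was 13.4 to 18.3% in naive and 22.1 to 31.2% in memory cells. Whether sex or the Trbv sum relative to Trbc1 and Trbc2 has a part in the result was not tested.

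Across all 17 segments that passed the filter on low values, 0 passed limma's test for memory against naive in wild type, where 2.14% of all genes passed. Similarly 0 of 17 passed in Dock2-deficient cells, against 2.08% of all genes. At an unadjusted p under 0.05 there were 2 segments in wild type (Trbv12-2 higher and Trbv26 lower), against 9.65% of all genes. There were 3 in Dock2-deficient cells (Trbv12-1 and Trbv12-2 higher, Trbv13-2 lower), against 11.1% of all genes. The groups did not overlap for 3 tested segments in wild type (Trbv1, Trbv12-1 and Trbv12-2, all higher in memory), against 6.20% of all genes, and for Trbv13-2 alone in Dock2-deficient cells, against 3.61%. The median log2 fold change of the 17 segments was -0.10 in wild type (0.01 over all genes) and -0.09 in Dock2-deficient cells (-0.09 over all genes). Scaling to the Trbv sum moved the median over all genes by 0.04 in wild type and by -0.08 in Dock2-deficient cells. As deposited, the segments' median was -0.13 in wild type (-0.02 over all genes). In Dock2-deficient cells it was -0.005 (-0.008 over all genes). Shares sum to 100% in a library, so a gain of some segments lowers the rest.

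**Figure D3:**
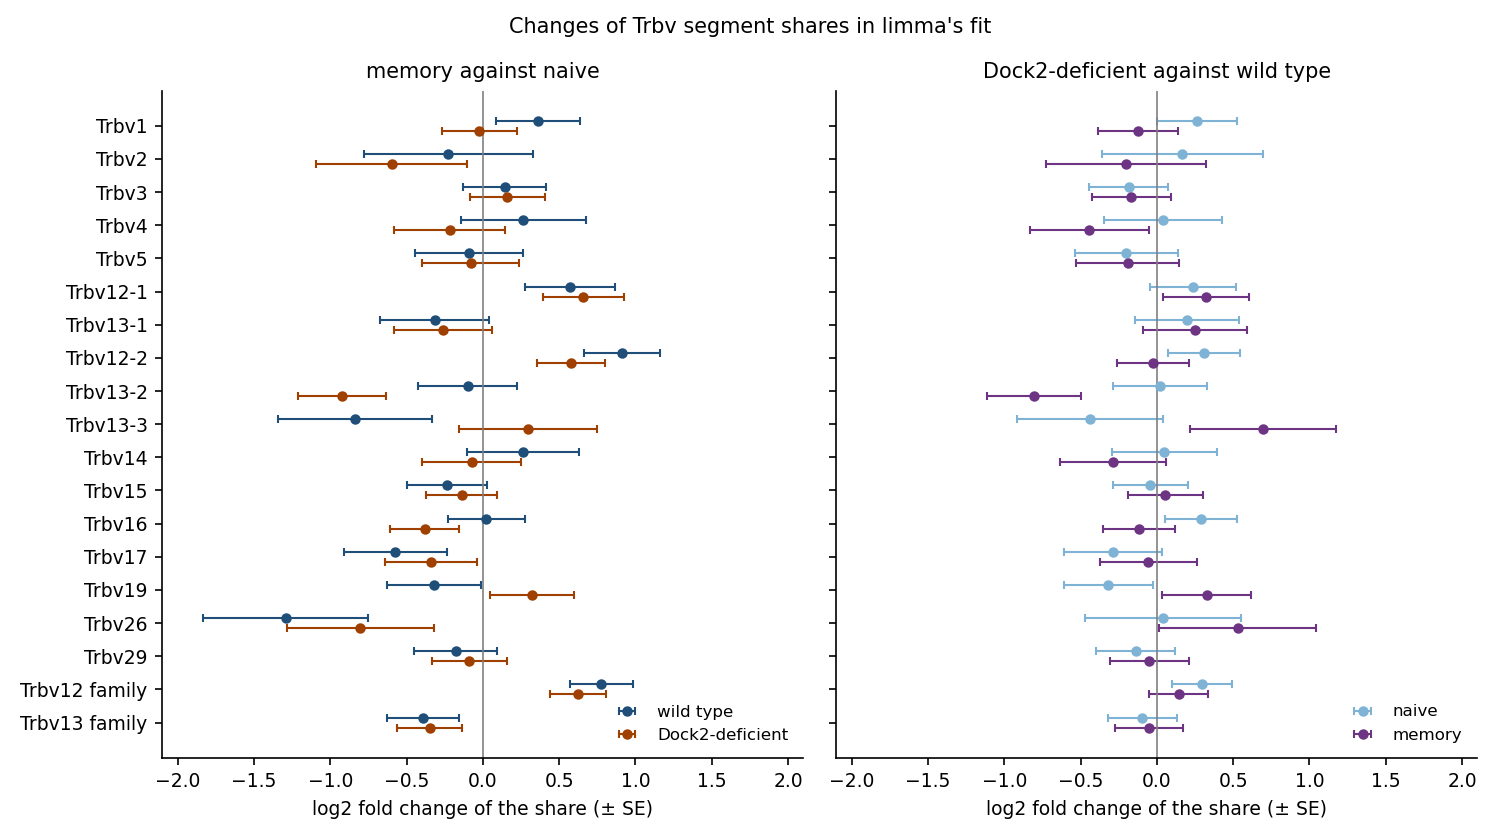
Log2 fold change of the share with its SE (horizontal axis) for the 17 tested segments, in chromosomal order, and the 2 family sums in limma's fit. The left panel gives memory against naive in each genotype and the right panel Dock2-deficient against wild type in each cell state. The Trbv12 rows lie right of 0 in both memory comparisons, and no segment passed the adjusted threshold in these 4 comparisons.

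The Trbv13 family, which holds the V beta 8 segments, had a lower mean share in memory cells. It took 20.5, 17.5, 18.003 and 14.6% in wild-type naive and 15.6, 10.9, 10.6 and 17.3% in wild-type memory libraries, or 17.6% ± 2.41 and 13.6% ± 3.35 (SD, n = 4 each). In Dock2-deficient cells it took 14.2, 17.6, 17.98, 15.2 and 17.3% in naive and 10.7, 14.7, 15.3, 9.80 and 14.4% in memory libraries, or 16.4% ± 1.65 and 12.995% ± 2.53 (SD, n = 5 each). The groups overlapped in both genotypes. The log2 fold changes were -0.39 ± 0.24 (limma, adjusted p = 0.678) and -0.35 ± 0.21 (adjusted p = 0.597). As shares of the sum without the Trbv12 rows, the family's means were 20.5% in wild-type naive and 17.7% in wild-type memory libraries. They were 19.8% in Dock2-deficient naive and 17.8% in Dock2-deficient memory libraries.

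Within that family the members did not move alike. Trbv13-2 (chromosome 6, 41121396 to 41121832, plus strand) took 9.44, 5.19, 5.68 and 8.75% in wild-type naive and 5.74, 5.26, 6.63 and 9.16% in wild-type memory libraries, which overlap. It took 6.604, 10.6, 8.17, 5.0 and 6.45% in Dock2-deficient naive and 3.39, 4.69, 2.33, 3.92 and 4.33% in Dock2-deficient memory libraries. The Dock2-deficient memory libraries lay below all libraries of the 3 other groups. These memory libraries held 5 to 22.01 expected reads on this segment. The log2 fold change was -0.92 ± 0.29 (limma, adjusted p = 0.143) for memory against naive in Dock2-deficient cells. It was -0.10 ± 0.32 in wild type (adjusted p = 0.978), and the interaction of -0.82 ± 0.43 did not pass (adjusted p = 0.938). For Trbv13-3, its closest relative in sequence, the values were -0.84 ± 0.50 in wild type and 0.30 ± 0.45 in Dock2-deficient cells (adjusted p = 0.678 and 0.870). The expected reads of both segments lay within 0.05 of a whole number in 5 of 5 Dock2-deficient memory libraries. Over all 18 libraries they did so in 14 for Trbv13-2 and in 15 for Trbv13-3, and were fractional in the other libraries.

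The other highly used segments showed smaller differences. Trbv16 took 7.58 to 8.56% in wild-type naive and 5.20 to 10.6% in wild-type memory libraries, and 7.99 to 11.9% in Dock2-deficient naive and 6.86 to 8.03% in Dock2-deficient memory libraries. Its log2 fold changes were 0.02 ± 0.25 in wild type and -0.38 ± 0.22 in Dock2-deficient cells (limma, adjusted p = 0.994 and 0.576). Trbv3 took 5.17 to 10.4, 7.49 to 10.6, 5.31 to 8.25 and 6.51 to 8.82% in the same order of groups, with log2 fold changes of 0.14 ± 0.27 and 0.16 ± 0.25 (adjusted p = 0.950 and 0.870). The groups overlapped for both segments.

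Trbv1, which lies at the far upstream end of the locus (chromosome 6, 40891229 to 40891885, plus strand), took 6.29, 4.72, 6.20 and 6.42% in wild-type naive and 7.90, 9.93, 6.67 and 6.45% in wild-type memory libraries. These groups lay apart narrowly (6.42 and 6.45% were the nearest values), and with a log2 fold change of 0.36 ± 0.28 the test was not passed (limma, adjusted p = 0.782). In Dock2-deficient cells the means were 7.19% ± 1.40 in naive and 7.16% ± 1.79 in memory libraries. Trbv31 (chromosome 6, 41557691 to 41558452, minus strand), which lies downstream of the constant segments in the opposite orientation, took 1.80, 1.42, 1.18 and 2.04% in wild-type naive and 0.718, 0.779, 0.785 and 0.416% in wild-type memory libraries. These groups did not overlap, but the shares rest on 3 to 8 expected reads per naive and 2 to 4 per memory library. The segment was under the filter on low values and was not tested. How often groups lie apart among genes so low was not counted. In Dock2-deficient cells it took 0.408 to 1.997% in the naive group and 0.565 to 3.26% in the memory group, which overlap.

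Of the 19 segments with a mean share of at least 1%, 3 had a higher mean share in memory cells of both genotypes (Trbv3, Trbv12-1 and Trbv12-2). A further 9 had a lower one in both (Trbv2, Trbv5, Trbv13-1, Trbv13-2, Trbv15, Trbv17, Trbv20, Trbv26 and Trbv29), and 7 had opposite signs. The memory comparisons share no libraries. Across the 19 segments, which are tied together because shares sum to 100%, the differences in percentage points had a Pearson r of 0.68. Without the Trbv12 segments r was 0.02 over 17 segments, so the likeness between genotypes rests on that pair. The 9 segments lower in both were also read as shares of the sum without the Trbv12 rows. On that scale Trbv2, Trbv13-1, Trbv17, Trbv20 and Trbv26 still had lower means in memory cells of both genotypes. Trbv5 had higher means in both, and Trbv13-2, Trbv15 and Trbv29 had opposite signs.

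The second question was whether usage differed between genotypes. For Dock2-deficient against wild-type naive cells, 0 of 17 segments passed, against 0.117% of all genes, and no segment had an unadjusted p under 0.05, against 5.20% of all genes, or groups that did not overlap, against 2.54%. The Trbv12 family was higher by 3.202 percentage points in Dock2-deficient naive cells, with overlapping groups (log2 fold change 0.30 ± 0.19, limma, adjusted p = 0.999). For memory cells 0 of 17 passed, against 0.0742% of all genes. Only Trbv13-2 had an unadjusted p under 0.05, against 12.1% of all genes, and groups that did not overlap, against 4.26%. Its log2 fold change was -0.80 ± 0.31 (limma, adjusted p = 0.359). For the interaction 0 of 17 passed, against 0.0212% of all genes, and none had an unadjusted p under 0.05, against 4.02%. The log2 fold change between genotypes was smaller than its SE for 13 of the 17 segments in naive and for 11 in memory cells. The share of all genes for which this held was not counted, so nothing particular to the segments is read from these numbers.

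Memory profiles were less even than naive ones. The inverse Simpson index, the number of equally used segments that would give the same concentration, was 15.5 to 16.3 in wild-type naive and 12.3 to 14.4 in wild-type memory libraries. It was 14.8 to 16.7 in Dock2-deficient naive and 11.8 to 14.5 in Dock2-deficient memory libraries. All 9 memory libraries thus lay below all 9 naive ones. The means were 15.9 ± 0.342, 13.3 ± 1.02, 15.5 ± 0.684 and 13.03 ± 1.21 (SD, n = 4, 4, 5 and 5). The 3 most used segments took 26.9%, 33.7%, 28.9% and 35.1% on average in the same order.

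With the Trbv12 rows removed, the index was 13.6 to 14.3 in wild-type naive and 11.7 to 13.4 in wild-type memory libraries, which still lay apart. In Dock2-deficient mice the naive libraries, at 13.6 to 14.9, overlapped with the memory libraries, at 12.6 to 14.3. As an index over the members it was not tested.

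**Figure D4:**
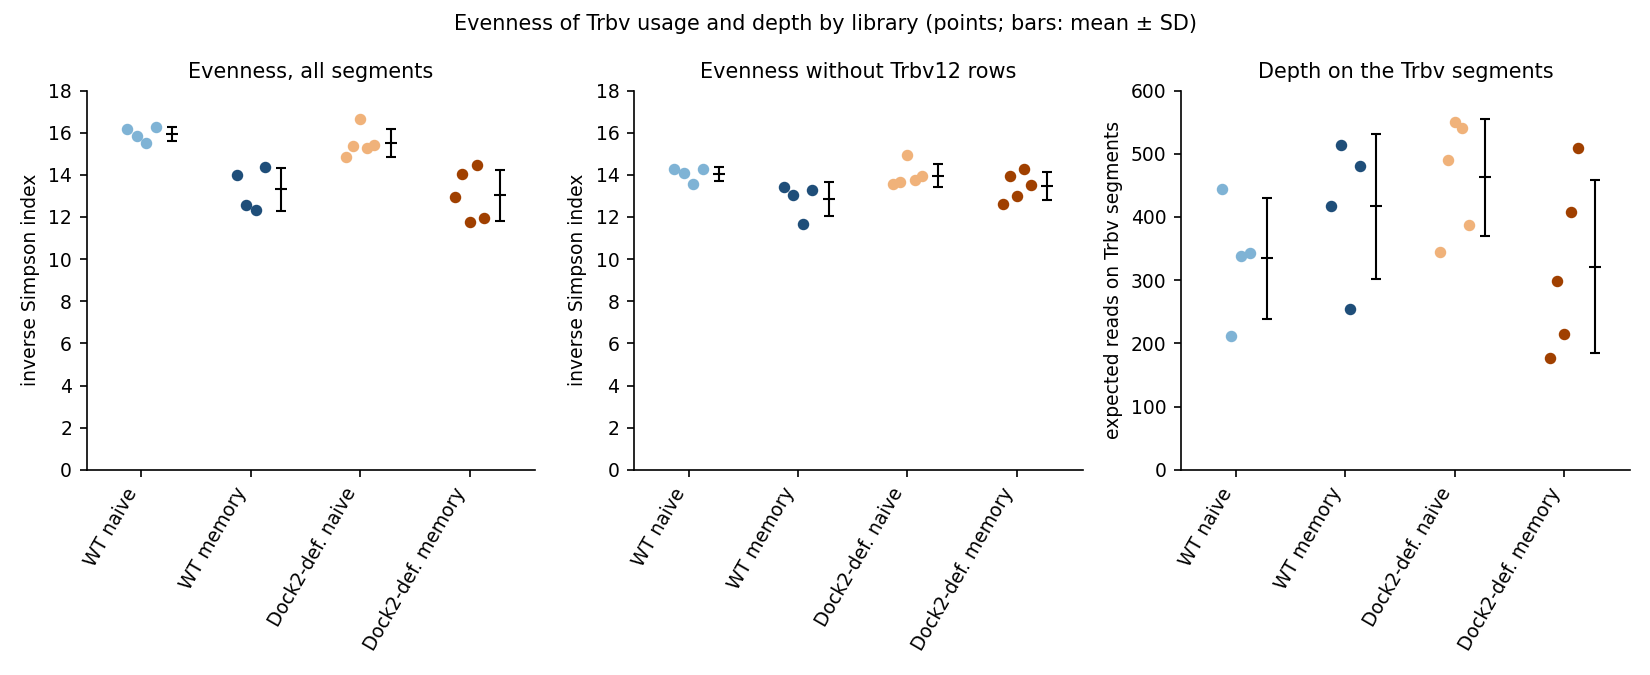
Inverse Simpson index of Trbv usage with all segments (left) and without the Trbv12 rows (middle), and expected reads on the Trbv segments (right), per library (points) with mean and SD (bars; n = 4 for wild type, n = 5 for Dock2-deficient). The naive libraries lie between 14.8 and 16.7 and the memory libraries between 11.8 and 14.5 with all segments, while depth overlaps between all groups.

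Whole profiles were compared by their distance, the sum of absolute differences in share divided by 2, which is 0% for identical usage. Between group means it was 14.5% for wild-type naive against memory and 13.001% for Dock2-deficient naive against memory. It was 7.77% between genotypes in naive and 8.58% in memory cells. Without the Trbv12 rows the distances were 11.007, 10.03, 7.25 and 9.25%. Single libraries within a group differed by medians of 17.3 and 12.98% (naive and memory, wild type) and of 12.98 and 15.1% (naive and memory, Dock2-deficient). Naive and memory libraries of a genotype differed by medians of 18.1% (same replicate number) and 20.5% (different number) in wild type, and of 17.0 and 18.6% in Dock2-deficient mice. Wild-type naive libraries thus differed from each other almost as much as from memory libraries, and libraries of the other groups less so. Wild-type and Dock2-deficient libraries differed by medians of 15.2% in naive and 16.1% in memory cells, beside 12.98 to 17.3% within groups. Over the 19 segments the spread of expected reads between libraries of a group, as chi-square per degree of freedom, had means of 1.42, 1.53, 1.56 and 1.33 for naive and then memory cells of wild type, followed by those of Dock2-deficient mice, where counting error alone gives a mean of 1.

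The 7 members under the filter were Trbv7, Trbv20, Trbv21, Trbv23, Trbv24, Trbv30 and Trbv31. Trbv20 took 0.392 to 3.77% and was above 0 in all 18 libraries. Trbv23 was above 0 in 12, Trbv24 in 10 and Trbv30 in 6 libraries. Trbv7 and Trbv21 were above 0 in 1 library each, at shares of 0.208% and 0.245%. The pseudogene Trbv24, whose RefSeq synonym is Tcrb-V17, reached 1.48% in wild-type naive replicate 3. The other tested segments took between 0.208% (Trbv26) and 9.62% (Trbv17) of the Trbv sum.

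Genes that build and carry the receptor were read beside the shares, from a list of 21 genes (constant segments, CD3 chains, CD8 chains, recombination and end-joining factors). Of these, 15 were tested and 0 passed in any of the 5 comparisons on the deposited scale, where 2.52%, 2.82%, 0.138%, 0.0530% and 0.0318% of all genes passed (memory against naive in wild type and in Dock2-deficient mice, genotype in naive and in memory cells, interaction). Unadjusted p-values under 0.05 numbered 3, 1, 0, 6 and 2 of 15, beside 12.1%, 13.4%, 6.1%, 16.4% and 5.21% of all genes on that scale. The list's median log2 fold changes were -0.22, -0.07, 0.18, 0.35 and 0.35, beside -0.02, -0.01, 0.00, 0.01 and 0.01 over all genes. Trbc1 and Trbc2, the beta constant segments, averaged 798 and 1545 in wild-type naive and 628 and 1223 in wild-type memory libraries, and 683 and 1513 in Dock2-deficient naive and 814 and 2172 in Dock2-deficient memory libraries. Trac, the alpha constant segment, averaged 683, 818, 669 and 996 in the same order of groups.

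Transcripts of the recombinase were at or near 0. Rag1 was listed at 0 in all 18 libraries and Rag2 at 0 in 16. Dntt, which encodes the terminal transferase that adds bases at the joints in the thymus, averaged 9.57 ± 5.39 in wild-type naive and 0.737 ± 0.864 in wild-type memory libraries (SD, n = 4 each). In Dock2-deficient libraries it averaged 4.70 ± 4.71 in naive and 1.19 ± 1.13 in memory cells (SD, n = 5 each). It was under the filter and was not tested. All 16 rows of Trbd and Trbj segments were listed at 0, so the table holds no measure of diversity or joining segment usage.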

How the data were processed

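RNA of 18 libraries of sorted mouse CD8 T cells was extracted with a Qiagen kit and sequenced after Smartseq2, a full-length method without strand information, per the labels' protocols. Build mm10, bcl2fastq, FastQC and RSEM are named in the submitters' processing notes. Versions, read length and annotation are not given in the sources used here. In the deposited table, each column is a normalized signal: RSEM expected counts that the authors divided by a factor per library. The factor was read back from the grid of values to obtain expected reads. No count model was run. Every column belonged to a library of the series (0 others).

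Values of all genes were scaled so that each library had the same Trbv sum, and log2(value + 1) was fitted with limma 3.58.1 (R 4.3.3; trend, two-sided). The fit held 1 mean per group over all 18 libraries, with 14 residual and 5.06 prior degrees of freedom. Fold changes on this scale understate low genes. Tested were the 9437 genes that reached a value of 10 in 4 or more libraries. P-values were Benjamini-Hochberg adjusted over all of them, with a threshold of 0.05. For the receptor gene list the deposited values were fitted unscaled. The fit was tested on simulated data. Other steps used Biopython 1.88, matplotlib 3.10.9, scipy 1.17.1, pandas 2.3.3 and numpy 2.4.6 under Python 3.11.15. Sequences and positions came from GENCODE M21 and older segment names from RefSeq, which held all 24 members. RefSeq's promoter table was not used. The result of 1 marker list is not reported here.

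Described with values were the 6 segments with the highest mean share, segments of at least 1% mean share whose groups did not overlap, segments past the threshold, and pseudogenes of at least 0.5% mean share (none). Trbv13-3, Trbv17, Trbv24 and Trbv26 were added after their values were seen. Members and lists were chosen with earlier results of these data known. Alternatives covered scaling, pseudocount, filter, weights, samples in the fit, the replicate number as a block, and leaving out each library.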

Additional observations from a re-analysis of the deposited data

Results flagged for a closer look

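In groups of 4 or 5 libraries, a library was singled out where its gap to the nearest other library was a large part of the group's range (Dixon's 95% critical value). This held for 6 of 96 groups examined over 24 quantities, where chance alone gives about 1 in 20. Trbv1 took 4.72% of the Trbv sum in wild-type naive replicate 2, against 6.20 to 6.42% in the others. Trbv19 took 7.29% in wild-type naive replicate 4 (5.61 to 5.66% in the others). In wild-type memory replicate 3, Trbv15 took 5.49% (4.79 to 4.87% in the others) and Trbv17 5.88% (4.28 to 4.55%). Trbv31 took 3.26% in Dock2-deficient memory replicate 3 (0.565 to 1.004% in the others). The Trbv12 family took 13.4% in Dock2-deficient naive replicate 3, against 17.1 to 18.3% in the others of its group.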

How the results depend on the processing

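Of 919 alternative values over 43 results, 885 matched the main value. For fold changes this meant the same direction and side of the threshold, and for counts past the threshold an equal number. For inverse Simpson indices and segment shares it meant a difference below the group's SD. Many of the 885 were counts that stayed at 0. The count of segments past the threshold in wild-type memory against naive became 1 (Trbv12-2) when values were centred on the mean log2 value of the segments of at least 1%, with array weights, and without the Trbv12 rows in the denominator, where the averaged contrast gave 2 (Trbv12-1 and Trbv12-2). The Trbv12 family fold change in wild type (log2, limma) then passed, at 0.96 (centred, adjusted p = 0.0165), 0.80 (array weights, 0.0106) and 0.95 (no Trbv12 denominator, 0.0232). It also passed at 0.79 with a pseudocount of 0.1 (0.0477), at 0.78 with no filter (0.0450) and without Dock2-deficient naive replicate 3 (0.0496). It did not pass with the libraries compared alone (0.288), as deposited (0.231) or without wild-type memory 4 and Dock2-deficient memory 5 (0.0755). Leaving out each library in turn gave 0.71 to 0.85. In Dock2-deficient mice the family passed at 0.75 (centred, 0.0490) and 0.80 (no Trbv12 denominator, 0.0368). In the averaged contrast Trbv12-2 and the family passed in all 28 alternatives. The Trbv13 family difference between genotypes in memory cells reversed to 0.0047 (as deposited), 0.10 (array weights) and 0.030 (without wild-type memory 4 and Dock2-deficient memory 5), and ranged from -0.16 to 0.071 with each library left out. Its interaction reversed to -0.019 (centred) and ranged from -0.064 to 0.17. The cause was not tested.

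The labels do not say that a replicate number marks the same animal. Same-numbered naive and memory libraries had correlations of -0.0203 to 0.132 in wild type and -0.253 to 0.303 in Dock2-deficient mice. Libraries with different numbers had -0.137 to 0.133 and -0.352 to 0.462, so these correlations cannot decide whether the numbers mark pairs. Xist was high in replicate 1 of both Dock2-deficient groups, and the median profile distance was smaller between same-numbered libraries in both genotypes. The main fits and the permutation tests took no pairs and treated all libraries as independent, which may not hold. With the replicate block the count of segments stayed at 0 in the 5 comparisons, and the Trbv12 family had adjusted p = 0.208 in wild type, 0.258 in Dock2-deficient mice and 0.0307 averaged (limma). Libraries held 176.93 to 550.76 Trbv reads, and the smallest difference of a single segment that this depth can show was not tested.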
